A study of Mus musculus with 48 samples.

Results

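Interferon-stimulated genes were examined in blood and in the medial prefrontal cortex (mPFC) of mice. The members were 34 listed genes, found by the gene name that the array annotation gives to a probe, and control spots were not counted. All 34 were on the array, with 42 of its 55681 probes (26 genes had 1 probe and 8 had 2), among 34844 gene names in all. A level is the log2 of the processed signal minus the 75th percentile of the same array, so that 0 is the 75th percentile, and levels of different probes cannot be ranked against each other. A gene was tested in a tissue when its probe was well above background on all 24 arrays of that tissue, with a processed signal above 50 on at least 2. In blood, 30 members were tested and Mx2, Ifi44, Ddx60 and Eif2ak2 were not. In mPFC, 29 were tested and Mx1, Oas3, Irf7, Ddx60 and Tap1 were not, and 26 members were tested in both tissues. Of the untested members, Irf7 was well above background on all 24 mPFC arrays and missed the signal minimum, while Ddx60 was well above background on 2 blood arrays and 1 mPFC array.

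Interferons are secreted when a cell senses viral or other foreign nucleic acid. Type I interferon binds the receptor Ifnar1/Ifnar2, the kinases Jak1 and Tyk2 signal through Stat2, and Stat2 and Irf9 act in a complex that binds the interferon-stimulated response element of target genes. The targets include the Ifit, Mx, Oas and guanylate-binding protein families and the ubiquitin-like modifier Isg15, and Usp18, which removes Isg15 from proteins and dampens the receptor, closes the loop. Blood leukocytes carry a part of these transcripts without infection, and microglia, astrocytes and neurons of the brain can make them as well.

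All mice were C57BL/6J females, 17 weeks of age at sampling. Control mice had a sham operation and no stress, CUMS mice had a sham operation and chronic ultra-mild stress, OVX mice were ovariectomized on both sides and not stressed, and OVX+CUMS mice had both (6 mice per group). CUMS followed a weekly schedule of mild stressors (cage tilt, a small or soiled cage, odor, lights at night, a reversed light cycle), while non-stressed mice had their bedding cleaned weekly. Surgery and blood sampling were done under pentobarbital in all 4 groups. RNA came from the pellet of centrifuged heparinized blood, which holds red cells, reticulocytes, platelets and all leukocytes, and from mPFC of the same mice. In the bulk RNA of either tissue, fewer cells of a type and less RNA per cell cannot be told apart. The OVX effect is the mean difference of ovariectomized and sham-operated mice over both stress levels (12 against 12 mice), the CUMS effect that of stressed and non-stressed mice over both operations, and the interaction is the CUMS effect in ovariectomized mice minus that in sham-operated mice. The effects share the same 24 mice. A gene was called altered at a Benjamini-Hochberg adjusted p under 0.05 in limma, adjusted over all probes detected in the tissue.

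No sequence was used to list the members, but the response element is, as described above, the site through which interferon reaches its targets. A larger share of matches than in other genes is therefore no independent result. The 250 bases before the RefSeq start are shown for 5 members measured in both tissues, taken from the promoter table of the GRCm38.p6 assembly. These 5 were picked from the regulators and effector genes named below because they held a match there, so their matches are not a result. Capitals mark a core of the element, GAAA and GAAA with any 2 bases between them (on the other strand TTTC and TTTC with 2 bases between), with overlapping matches joined. The windows are chr4:156200819-156201068 (minus strand) for Isg15, chr19:34640639-34640888 (plus) for Ifit1, chr10:128270248-128270497 (plus) for Stat2, chr8:71537473-71537722 (minus) for Bst2 and chr3:142620413-142620662 (plus) for Gbp2, each written 5′ to 3′ along the gene and ending at the base before the start.
Isg15: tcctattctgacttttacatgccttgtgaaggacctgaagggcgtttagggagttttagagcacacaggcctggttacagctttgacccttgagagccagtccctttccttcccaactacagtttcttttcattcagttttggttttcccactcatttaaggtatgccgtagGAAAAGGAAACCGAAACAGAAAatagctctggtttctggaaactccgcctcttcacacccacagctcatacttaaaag
Ifit1: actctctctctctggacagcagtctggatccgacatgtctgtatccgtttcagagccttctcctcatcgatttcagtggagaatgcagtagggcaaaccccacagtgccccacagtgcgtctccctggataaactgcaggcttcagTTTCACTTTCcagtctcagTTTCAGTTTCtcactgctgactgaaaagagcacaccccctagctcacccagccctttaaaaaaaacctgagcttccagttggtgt
Stat2: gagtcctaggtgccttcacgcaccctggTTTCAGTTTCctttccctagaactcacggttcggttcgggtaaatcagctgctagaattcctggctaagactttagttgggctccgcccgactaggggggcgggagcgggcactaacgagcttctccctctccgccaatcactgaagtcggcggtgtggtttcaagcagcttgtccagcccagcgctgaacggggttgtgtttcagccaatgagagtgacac
Bst2: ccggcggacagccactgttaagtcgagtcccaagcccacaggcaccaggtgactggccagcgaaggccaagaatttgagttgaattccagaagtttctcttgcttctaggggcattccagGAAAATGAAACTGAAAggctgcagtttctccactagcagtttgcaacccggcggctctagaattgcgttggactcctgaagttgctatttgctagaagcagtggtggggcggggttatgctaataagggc
Gbp2: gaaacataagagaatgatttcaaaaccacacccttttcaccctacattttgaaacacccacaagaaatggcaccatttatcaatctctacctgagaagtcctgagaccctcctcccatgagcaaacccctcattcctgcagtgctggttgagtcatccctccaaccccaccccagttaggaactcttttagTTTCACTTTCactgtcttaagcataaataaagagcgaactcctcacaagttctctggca
Isg15 held 3 overlapping matches, the nearest beginning 66 bases before the start. Ifit1 held 2 separate matches, Bst2 had 2 that overlap, and Stat2 and Gbp2 had 1 each, at 222 and 59 bases before the start. Over windows of 250 bases before to 50 after the start, 15 of the 26 members in the table (57.7%) held a match, 11 of them before the start, against 3.99% of the 27025 genes in the table (3.44% of 32851 promoters). Irf7, Irf9 and Oasl2 held none of these letters in the window. A match is a description of the letters, and no binding was measured.

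The sensitivity of the arrays differed between tissues, with a 75th percentile of processed signal of 54.9 to 192.0 in blood and 572.0 to 689.0 in mPFC. In blood, 23578 to 34838 probes per array were well above background, and the dimmest array, CUMS mouse 2 (54.9, with 75.2 for the next), also had the highest summed level of erythroid markers (14.67, others 12.91 to 14.17). All 8 erythroid marker genes were detected in blood and 5 in mPFC, and all 6 neuron markers were detected in mPFC and 2 in blood. The arrays lay on 3 slides per tissue. Slide 1 held 6 control and 2 CUMS mice, slide 2 held 4 CUMS and 4 OVX mice, and slide 3 held 2 OVX and 6 OVX+CUMS mice, so that operation and slide were largely shared.

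**Figure D1:**
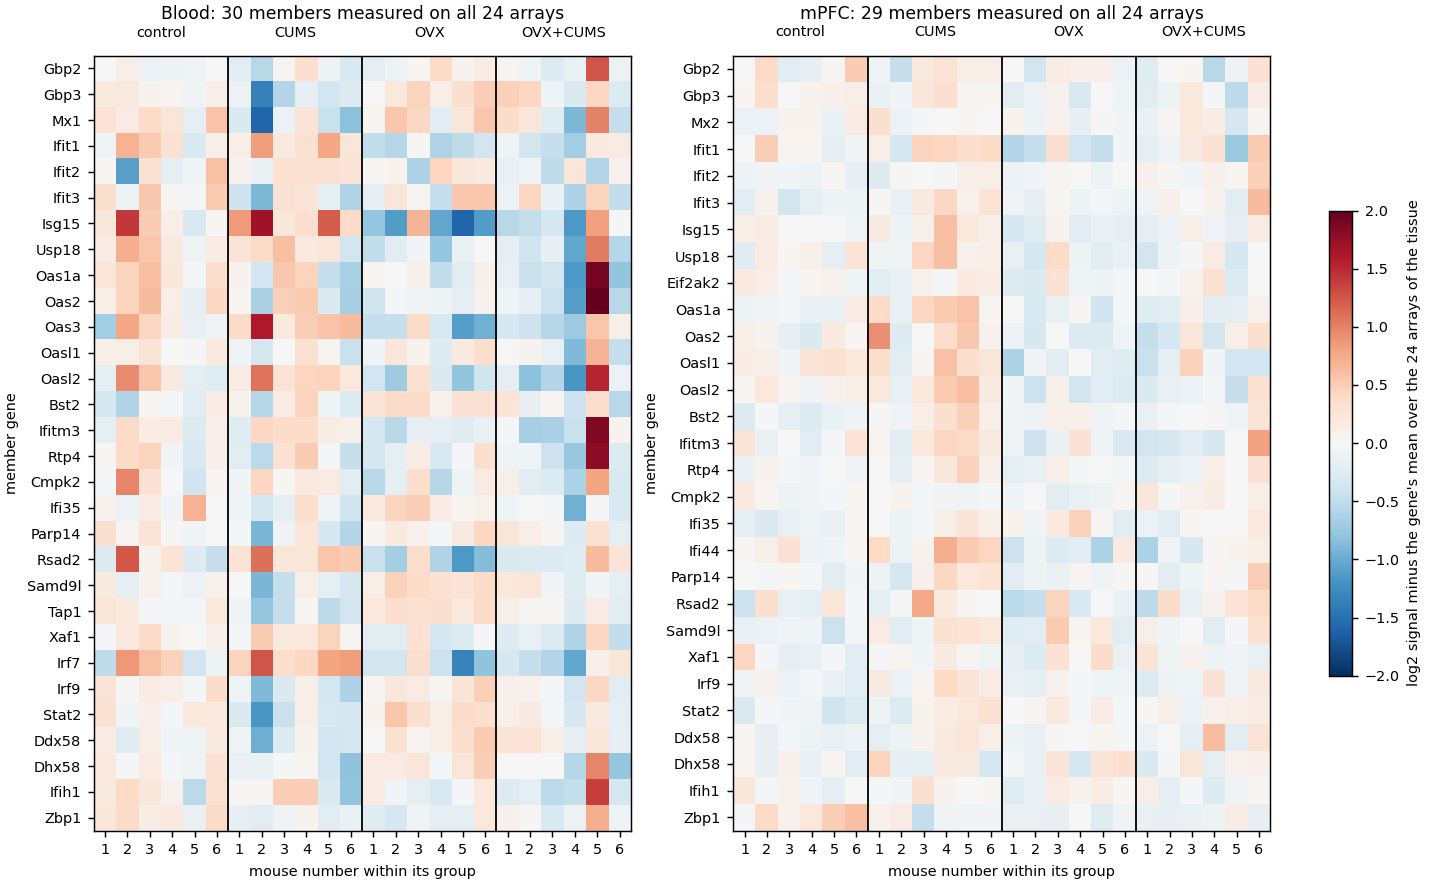
Level of each member (rows) in each mouse (columns, by group) in blood and mPFC, as log2 difference from the mean of the gene over the 24 mice of the tissue. Colours end at 2 log2 units on either side, and OVX+CUMS mouse 5 stands out in blood, where it was the highest of 24 mice for 12 of 30 members.

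In blood, OVX altered 13 of 30 members, 5 upwards and 8 downwards. Isg15, Irf7, Oas3, Ifit1, Oasl2, Rsad2, Usp18 and Xaf1 were lower in ovariectomized mice, and Gbp3, Ddx58, Samd9l, Stat2 and Tap1 were higher. The share is below that of all blood probes, of which 55.1% were altered by OVX (27.4% upwards), so a call by itself does not set these genes apart. The median change of the 30 members was -0.05 log2, against 0.04 for all 20748 probes. The first group holds the regulator Irf7 and effector genes. The second holds the signalling component Stat2, the sensor Ddx58 and the effector genes Gbp3, Samd9l and Tap1, so effector genes were in both.

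Among the regulators, Irf7, a transcription factor that amplifies interferon production, ranged from 2.99 to 4.75 (median 3.94) in 12 sham-operated mice and from 2.15 to 3.82 (median 3.09) in 12 ovariectomized mice. The groups overlapped, with 4 ovariectomized mice below the lowest sham-operated mouse. Its OVX effect was -0.84 ± 0.19 log2 (SE, 0.56-fold, limma adjusted p = 0.00122). Stat2, the partner of Irf9, ranged from 0.93 to 2.40 (median 2.04) in sham-operated mice and from 1.76 to 2.65 (median 2.24) after ovariectomy. It was 0.28 ± 0.11 log2 higher with OVX (limma adjusted p = 0.0284), with 4 ovariectomized mice above all sham-operated ones. Irf9 had a difference of 0.20 ± 0.10 log2 that did not pass (limma adjusted p = 0.0962).

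Of the Ifit and Isg15 genes, Isg15 had the largest change of all members. It ranged from 6.64 to 8.62 (median 7.30) in sham-operated mice and from 5.36 to 7.75 (median 6.27) in ovariectomized mice. In 9 of 12 ovariectomized mice it was below every sham-operated mouse, and the overlap came from OVX mouse 3 (7.62) and OVX+CUMS mice 5 (7.75) and 6 (6.91). The OVX effect was -1.12 ± 0.25 log2 (0.46-fold, limma adjusted p = 0.0011), and the other Isg15 probe gave -1.13 ± 0.27. Ifit1, which binds RNA that lacks the marks of host messages, ranged from 0.215 to 1.36 (median 0.80) and from -0.17 to 0.72 (median 0.10). In 8 ovariectomized mice it was below the sham-operated range, and the effect was -0.63 ± 0.13 log2 (limma adjusted p = 0.000581). Usp18 fell by 0.50 ± 0.17 log2 (limma adjusted p = 0.0167), from a median of 0.37 to -0.05, and 5 ovariectomized mice were below and 1 above the sham-operated range. The 2 remaining genes of this class did not pass, with OVX effects of -0.11 for Ifit2 and 0.04 log2 for Ifit3.

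The Oas family, whose active members make the messenger that switches on RNase L, was lower for 2 of 5 tested genes. Oas3 ranged from 0.77 to 3.08 (median 1.87) in sham-operated and from 0.37 to 2.03 (median 1.03) in ovariectomized mice, an effect of -0.71 ± 0.19 log2 (limma adjusted p = 0.0041). The groups overlapped, with 3 ovariectomized mice below the lowest sham-operated one. Oasl2 ranged from 3.075 to 4.40 (median 3.55) and from 2.16 to 4.84 (median 2.92), and fell by 0.61 ± 0.22 log2 (limma adjusted p = 0.0253). For this gene 8 ovariectomized mice were below the sham-operated range, and OVX+CUMS mouse 5 was above it. Rsad2 (viperin, an antiviral enzyme) ranged from 7.77 to 9.46 in sham-operated and from 7.08 to 8.86 in ovariectomized mice and fell by 0.59 ± 0.18 log2 (limma adjusted p = 0.00988). Xaf1 was lower by a smaller amount (-0.355 ± 0.10 log2), with 9 ovariectomized mice below all sham-operated ones.

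The 5 members that were higher after OVX changed by 0.27 to 0.38 log2. Gbp3, a guanylate-binding protein, ranged from -0.06 to 1.49 (median 1.20) in sham-operated and from 1.00 to 1.78 (median 1.56) in ovariectomized mice, and its effect was 0.38 ± 0.12 log2 (limma adjusted p = 0.0147). In 7 ovariectomized mice it was above the sham-operated range. Ddx58 (RIG-I, a sensor of viral RNA) was 0.32 ± 0.10 log2 higher, with 6 ovariectomized mice above that range. Samd9l was 0.30 ± 0.10 log2 higher by 1 probe, while its other probe gave 0.18 ± 0.10 (limma adjusted p = 0.118). Tap1, which carries peptides to class I molecules, was 0.27 ± 0.08 log2 higher (limma adjusted p = 0.00929). Of the other members named for their class, the GTPases Mx1 (0.26 ± 0.19) and Gbp2 (0.17 ± 0.14), the RNA sensor Ifih1 (-0.10 ± 0.18) and the virus-tethering protein Bst2 (0.21 ± 0.12 log2) did not pass the test.

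These OVX effects could not be separated from slide or from the red cell content of the blood. With slide as a fixed block, 0 of 30 members and 0 of 20748 probes were called in limma (1 member at an unadjusted p under 0.05). A random block for slide left 3 members called, all lower, beside 22.4% of all probes. Within slide 2, where 4 OVX and 4 CUMS mice differed in both factors, 11 of 30 members differed (4 higher and 7 lower in OVX mice), beside 52.2% of all probes. The erythroid marker list moved with OVX, with 6 of 8 genes lower and 0 higher and a summed level of 12.91 to 13.69 in ovariectomized against 13.43 to 14.67 in sham-operated mice. Of the other lists, 4 of 7 B cell genes were higher, and 3 of 6 NK cell and 2 of 8 T cell genes were lower. Of 6 plasmacytoid dendritic cell genes 2 were higher and 1 was lower. Of all blood probes 27.4% were higher and 27.7% lower, and a share near these does not set a list apart. The part of these lists was not tested. With the erythroid summed level as a covariate, an analysis chosen after seeing the data, 0 of 30 members and 0 of 20748 probes were called for OVX (3 members at an unadjusted p under 0.05), and the effect was -0.15 for Irf7, -0.39 for Isg15, -0.58 for Usp18 and -0.25 log2 for Xaf1. In the fixed block for slide, the effects of Usp18 (-0.61), Ifit1 (-0.53) and Xaf1 (-0.32 log2) were close in size to those without it. Their limma adjusted p was 0.819, 0.799 and 0.846. The effects of Isg15 (-0.11), Irf7 (-0.08) and Oasl2 (-0.21 log2) were smaller in that fit, and those of Oas3 (0.17) and Rsad2 (0.05 log2) turned sign. Since operation and slide were largely shared, all estimates of that fit are imprecise. Scaling by spike-in probes moved the median of all blood probes from 0.04 to 0.40 log2. It gave 11 members higher and 3 lower, beside 58.3% of all probes called.

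**Figure D2:**
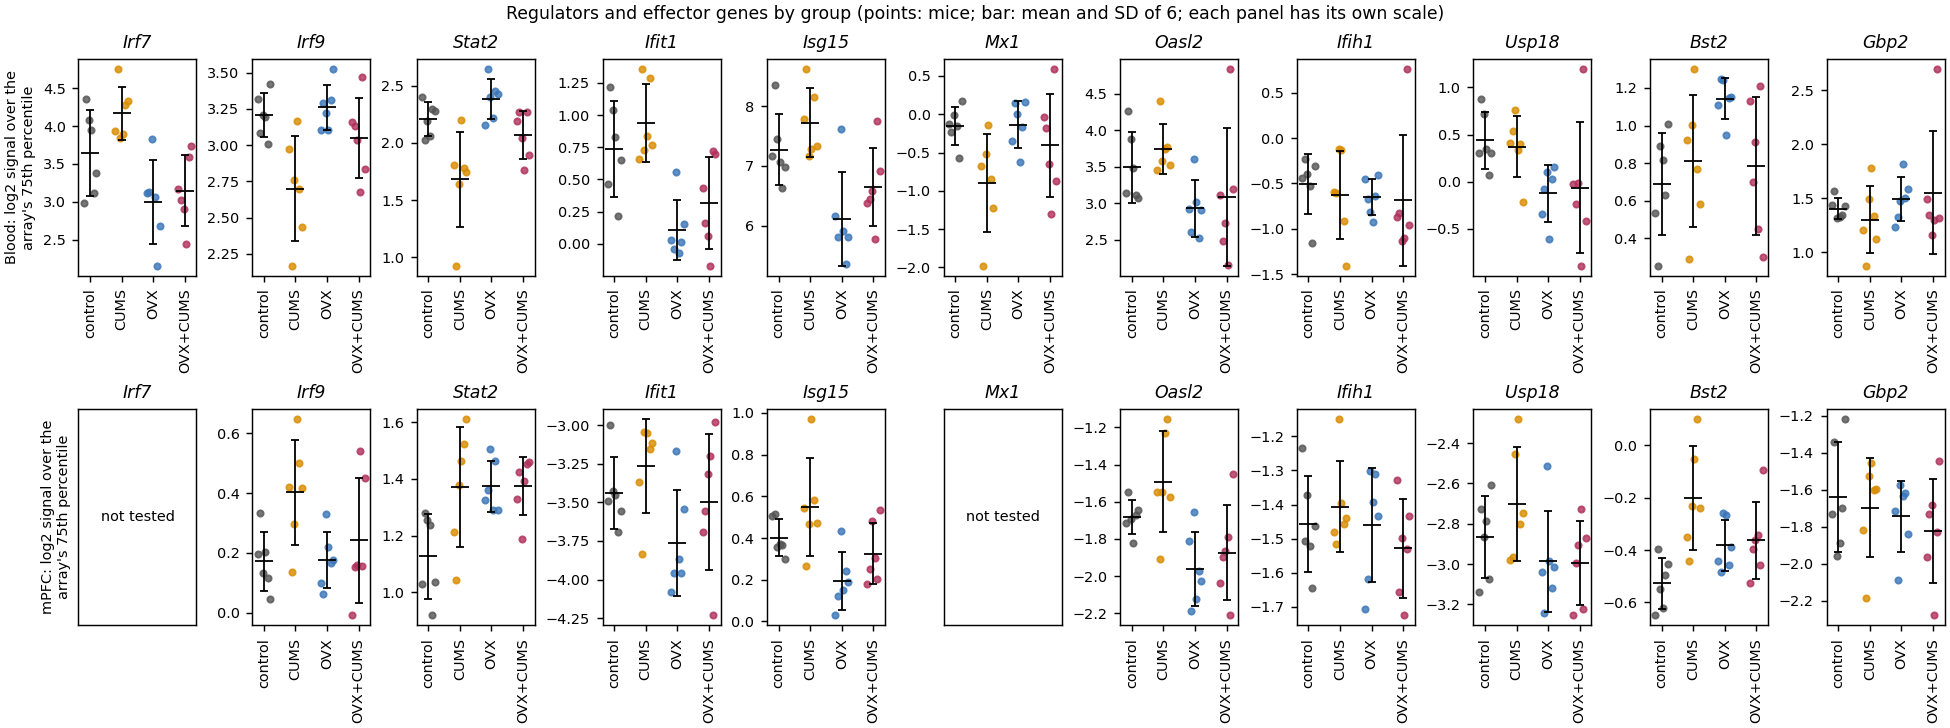
Level of the 3 regulators and 8 effector genes in each mouse (points) by group in blood (top) and mPFC (bottom), as log2 signal over the 75th percentile of the array, with the mean and SD of 6 mice (bars) and a separate scale in each panel. Isg15 and Irf7 in blood were lowest in OVX mice (means 6.11 and 2.99), and Irf7 and Mx1 were not tested in mPFC.

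The link of members to the erythroid level was also present between mice of the same group. Over 24 mice, as deviations from the group means, 17 of 30 blood members were correlated with the summed erythroid level (permutation test within groups, adjusted over all probes), against 53% of all blood probes (10996 of 20748), so the share is near the background. The correlation was positive for 6 members: Rsad2 (r = 0.77, rho = 0.76), Oas3 (r = 0.74), Irf7 (r = 0.70), Isg15 (r = 0.55), Ifit1 (r = 0.49) and Oasl2 (r = 0.41). It was negative for 11, led by Ddx58 (r = -0.87, rho = -0.85), Stat2 (r = -0.73), Irf9 (r = -0.73), Parp14 (r = -0.72) and Samd9l (r = -0.71). The adjusted p was 0.000257 for Rsad2 and 0.000167 for Ddx58 in the permutation test. Without the 2 mice farthest from the median erythroid level, CUMS mouse 2 and OVX mouse 5, all 17 kept their sign. By Spearman's rho, 15 members passed. These relations were chosen after seeing the data, and their part in the OVX and CUMS effects was not tested beyond the covariate.

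In blood, CUMS altered 8 of 30 members, 7 of them downwards. Mx1, Stat2, Tap1, Gbp3, Ifi35, Irf9 and Samd9l were lower in stressed mice and Rsad2 was higher. Of all blood probes 48.5% were altered (29.4% downwards), again a larger share than among the members. The median change was -0.10 log2 for the members and -0.03 for all probes.

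Stat2 ranged from 2.02 to 2.65 (median 2.29) in 12 non-stressed mice and from 0.93 to 2.27 (median 1.85) in 12 stressed mice, an effect of -0.42 ± 0.11 log2 (limma adjusted p = 0.00432). Irf9 ranged from 3.01 to 3.52 (median 3.22) and from 2.17 to 3.47 (median 2.91), and fell by 0.36 ± 0.10 log2 (limma adjusted p = 0.00889). For both genes 7 of 12 stressed mice were below all non-stressed ones, and the ranges overlapped. The third regulator, Irf7, had a CUMS effect of 0.34 ± 0.19 log2 that did not pass (limma adjusted p = 0.132), with group means ± SD of 3.64 ± 0.56 in control, 4.17 ± 0.35 in CUMS, 2.99 ± 0.55 in OVX and 3.15 ± 0.47 in OVX+CUMS mice. The GTPase gene Mx1 ranged from -0.62 to 0.17 (median -0.14) without and from -1.98 to 0.59 (median -0.66) with stress, an effect of -0.51 ± 0.19 log2 (limma adjusted p = 0.0347). Its lowest value was in CUMS mouse 2, the dimmest array, and its highest in OVX+CUMS mouse 5.

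Tap1 ranged from 0.94 to 1.36 (median 1.19) in non-stressed and from 0.21 to 1.15 (median 0.84) in stressed mice and fell by 0.38 ± 0.08 log2 (limma adjusted p = 0.00193). Gbp3 fell by 0.36 ± 0.12 log2 (limma adjusted p = 0.0215), and 9 stressed mice were below the non-stressed range for Gbp3, 7 for Tap1. The increase of Rsad2 was 0.46 ± 0.18 log2 (limma adjusted p = 0.0398), from a median of 7.87 to 8.47. No stressed mouse was above the non-stressed range for Rsad2, since control mouse 2 had the highest level of all (9.46). Of the effector genes called for OVX alone, Isg15 (0.49 ± 0.25), Oas3 (0.42 ± 0.19), Ifit1 (0.21 ± 0.13), Oasl2 (0.20 ± 0.22) and Usp18 (-0.0024 ± 0.17 log2) did not pass for CUMS. Bst2, Gbp2 and Ifih1 had CUMS effects of -0.12, -0.02 and -0.08 log2 and did not pass.

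Some marker lists moved with CUMS as well. Of 8 erythroid genes 6 were higher, of 7 B cell genes 6 were lower and of 8 T cell genes 5 were lower. Of all blood probes 19.1% were higher and 29.4% lower. The summed B cell level was 7.12 to 8.37 in stressed against 7.73 to 8.63 in non-stressed mice. With the erythroid level as a covariate, Tap1 (-0.28 log2, limma adjusted p = 0.0304) was the only member called for CUMS, beside 11.1% of all probes. A fixed block for slide gave 13 called members, 4 higher and 9 lower, beside 49.7% of all probes. Within slide 1 (2 CUMS against 6 control mice) and slide 3 (6 OVX+CUMS against 2 OVX mice) 0 members were called in limma. In both, 0 of 20748 probes were called, and 14 and 4 members had an unadjusted p under 0.05. Spike-in scaling gave 12 lower and 0 higher, beside 45.3% of all probes called, with the median of all probes at -0.32 log2.

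**Figure D3:**
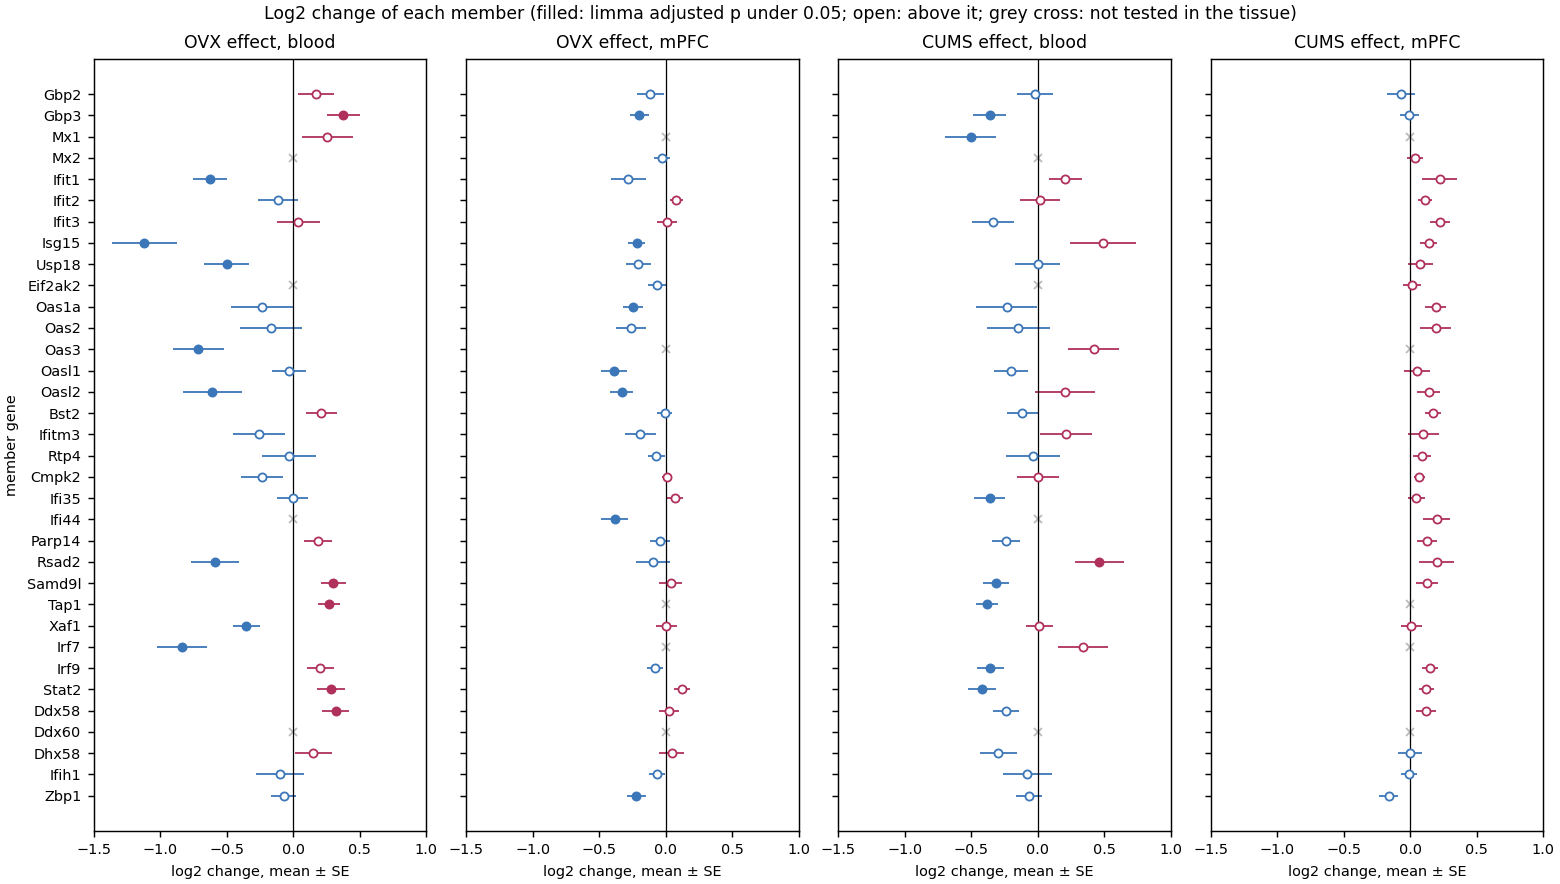
Log2 change of each member for OVX and CUMS in blood and mPFC, as mean ± SE from limma (filled, adjusted p under 0.05). Filled points are on both sides of 0 for OVX in blood (5 higher, 8 lower), on the lower side for OVX in mPFC (7 lower), and absent for CUMS in mPFC. Among the 7, Ifi44 met the signal minimum only through sham-operated mice.

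The interaction altered 0 of 30 blood members in limma (1 at an unadjusted p under 0.05), beside 1.42% of all probes. Zbp1, a sensor of Z-form nucleic acid, had the smallest unadjusted p, with 0.51 ± 0.19 log2 (limma adjusted p = 0.15). OVX+CUMS mice differed from control mice in 0 of 30 members (4 at an unadjusted p under 0.05), beside 6.26% of all probes, although 26 of 30 had lower means in OVX+CUMS mice and 4 had higher ones, beside 39.3% of all probes with a higher mean (median -0.17 log2 for the members and -0.06 for all probes). Isg15 was 7.27 ± 0.59 (SD, n = 6) in control, 7.72 ± 0.58 in CUMS, 6.11 ± 0.78 in OVX and 6.64 ± 0.66 in OVX+CUMS mice, and the OVX+CUMS mean minus that of control mice was -0.63 ± 0.35 log2 (SE, limma adjusted p = 0.316; exact permutation p = 0.11, two-sided). With the erythroid level as a covariate, Bst2 was called for the interaction (-0.65 log2, limma adjusted p = 0.0328), beside 8.96% of all probes, and Ifit3 (-0.57) and Irf9 (-0.34 log2) for OVX+CUMS mice minus control mice, beside 15.1%. The SD of the mean member level was 0.43 among OVX+CUMS mice, against 0.14 to 0.17 in the other groups.

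In that group, mice 5 and 4 lay at opposite ends. The mean member level, centred over 24 mice, was 0.72 in mouse 5, -0.58 in mouse 4 and -0.25 to -0.02 in the other OVX+CUMS mice. Mouse 4 was the lowest of 24 mice for 10 of 30 members, and mouse 5 was the highest for 12. In blood of OVX+CUMS mouse 5, 11 of 30 members were at least 1 log2 unit above the median of the 5 other OVX+CUMS mice, beside 5.25% of all blood probes. Oas2 was at 3.63 (median of the others 1.18), Oas1a at 4.27 (1.93), Ifitm3, which restricts viral entry, at 5.54 (3.25), Oasl2 at 4.84 (2.74) and Rtp4 at 4.59 (2.53). The RNA sensor Ifih1 (0.76 against -0.96), Usp18 (1.20 against -0.24), Gbp2 (2.70 against 1.32), Isg15 (7.75 against 6.45), Mx1 (0.59 against -0.65) and Cmpk2 (0.90 against -0.17) were the other 6. The regulators were closer to the group, with Irf7 0.57, Irf9 0.43 and Stat2 0.22 log2 above its median, and Samd9l (-0.01) and Ifit2 (-0.51) were not above it.

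The same blood array had the highest summed level of neutrophil markers (11.92, with 9.28 to 9.47 in the other 5 mice) and of monocyte markers (8.89) and the lowest of B cell markers (7.12). Over all 24 mice, Gbp2 (r = 0.93, rho = 0.77) and Ifitm3 (r = 0.84, rho = 0.59) were correlated with the neutrophil level within groups (permutation test, adjusted p = 0.00535 and 0.0391), beside 3.48% of all probes, and the other 28 were not called. By Spearman's rho Gbp2 passed and Ifitm3 did not. Without mouse 5, r was 0.78 for Gbp2 and 0.41 for Ifitm3. With the B cell level, 8 were called, led by Ifitm3 (r = -0.81) and Oasl2 (r = -0.76), beside 23.1% of all probes. The part of these cells in the high levels of mouse 5 was not tested further. In mPFC of the same mouse Ifit1, Gbp3, Mx2, Oasl2 and Ddx58 were the lowest of 24 mice.

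Without this mouse, 14 of 30 members were altered by CUMS in blood, all lower, with Oas1a, Oas2, Oasl1, Ifit3, Parp14, Ddx58 and Dhx58 added and Rsad2 no longer called, beside 50.8% of all probes (31.6% lower). OVX then altered 16 (5 higher, 11 lower), adding Ifitm3 (-0.44), Oas1a (-0.44) and Oas2 (-0.38 log2), beside 55.6% of all probes. OVX+CUMS mice were then lower than control mice in 4 members, Oas1a (-0.88 log2), Usp18 (-0.75), Oas2 (-0.73) and Xaf1 (-0.47), beside 5.2% of all probes, and 28 of 30 members had a lower mean (median -0.40 log2). The interaction altered 0 members in limma and 0.0% of all probes without the mouse. These counts were obtained by leaving out a mouse whose levels had been seen.

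**Figure D4:**
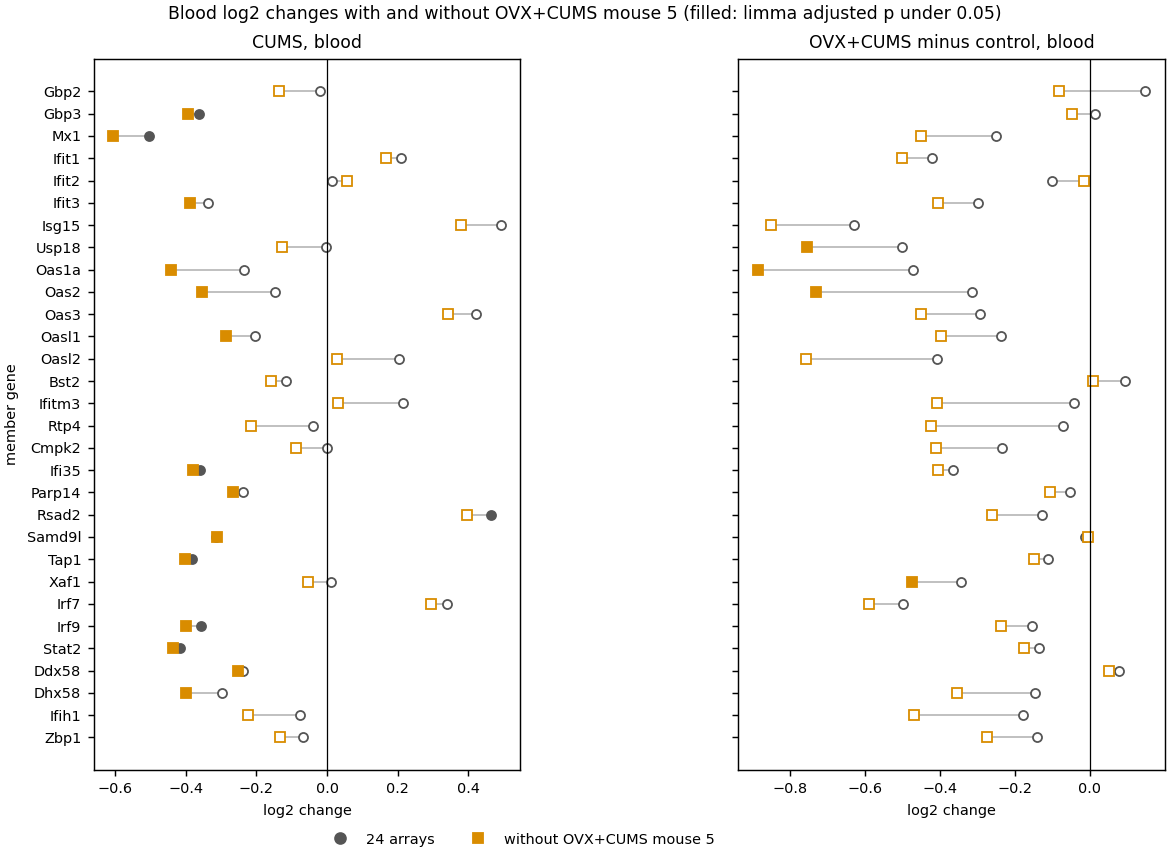
Log2 change of the 30 blood members for CUMS (left) and for OVX+CUMS minus control (right) over 24 arrays (circles) and without OVX+CUMS mouse 5 (squares), filled where the limma adjusted p was under 0.05. Most squares lie to the left of their circles, and the called members go from 8 to 14 for CUMS and from 0 to 4 for OVX+CUMS minus control.

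In mPFC, OVX altered 7 of 29 members, all downwards. They were Oasl1, Ifi44, Oasl2, Oas1a, Zbp1, Isg15 and Gbp3, of which 3 belong to the Oas family. Ifi44 met the signal minimum only through sham-operated mice, so that filter favoured a lower value after OVX and its call is no support for a decrease. Of all mPFC probes 30.9% were altered (11.7% downwards), and 63% of all probes had a higher mean after OVX, with a median of 0.04 log2 against -0.07 for the members.

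Oasl1 ranged from -3.58 to -2.79 (median -3.14) in sham-operated and from -3.99 to -2.91 (median -3.59) in ovariectomized mice, and fell by 0.39 ± 0.10 log2 (limma adjusted p = 0.00476). For Oasl1, 6 ovariectomized mice were below the sham-operated range. Ifi44 ranged from -4.04 to -3.20 (median -3.84) and from -4.57 to -3.75 (median -4.09). Its effect of -0.38 ± 0.10 log2 is given as a description only, because of the filter. Oasl2 ranged from -1.91 to -1.15 (median -1.61) and from -2.21 to -1.45 (median -1.94), and fell by 0.33 ± 0.08 log2 (limma adjusted p = 0.00516). Oas1a fell by 0.25 ± 0.08 (limma adjusted p = 0.0184), and its other probe gave -0.02 ± 0.19 log2. Isg15 fell by 0.22 ± 0.06 log2 (limma adjusted p = 0.0134), from a median of 0.47 to 0.22, with 8 ovariectomized mice below all sham-operated ones. The other Isg15 probe gave -0.15 ± 0.10 log2 and did not pass (limma adjusted p = 0.255), with 0 mice below that range. Zbp1 (-0.22 ± 0.07, limma adjusted p = 0.0217) and Gbp3 (-0.20 ± 0.07 log2) were also lower.

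Among the members that did not pass, Ifit1 had an OVX effect of -0.28 ± 0.13 and Usp18 of -0.21 ± 0.09 log2, while Irf9 (-0.08 ± 0.06), Gbp2 (-0.12 ± 0.10), Ifih1 (-0.06 ± 0.06), Bst2 (-0.01 ± 0.06) and Stat2 (0.12 ± 0.06 log2) had smaller ones. Of the microglia marker genes 7 of 8 were higher after OVX, beside 19.1% of all mPFC probes. Their summed level was 6.26 to 6.56 in ovariectomized mice. In sham-operated mice it was 6.13 to 6.24 on slide 1 and 6.29 to 6.47 on slide 2. Of the astrocyte markers 0 of 6 were altered and of the endothelial markers 0 of 5, beside 30.9% of all probes. NK cell markers were lower in 2 of 3, T cell markers in 1 of 4 and B cell markers in 2 of 3, beside 11.7% of all probes. The third B cell marker was higher. The summed T cell level was 3.34 to 3.63 in sham-operated mice on slide 1, 2.80 to 2.86 in those on slide 2 and 2.76 to 3.01 in ovariectomized mice. The NK cell level was 1.34 to 1.65, 0.98 to 1.055 and 0.73 to 1.11 in the same order. Sham-operated mice on slide 2 were thus within the range of ovariectomized mice for both lists. The part of these lists in the member changes was not tested. With slide as a fixed block 0 of 29 members and 0 of 28353 probes were called (9 members at an unadjusted p under 0.05). With slide as a random block 0 members were called, beside 3.95% of all probes. In the fixed block the changes were -0.42 for Gbp3, -0.59 for Ifi44, -0.38 for Isg15, -0.36 for Oas1a, -0.55 for Oasl1, -0.53 for Oasl2 and -0.0018 log2 for Zbp1. Their limma adjusted p was 0.592 to 0.999. Since operation and slide were largely shared, these estimates are imprecise, and the OVX changes in mPFC could not be separated from slide. Within slide 2, 0 members differed between 4 OVX and 4 CUMS mice (15 at an unadjusted p under 0.05, and 27 of 29 with a lower mean in OVX mice), beside 0.0423% of all probes. Spike-in scaling called 20 members lower and 0 higher, beside 34.9% of all probes, with the median of all mPFC probes moved to -0.13 log2.

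CUMS altered 0 of 29 members in mPFC in limma, beside 4.2% of all probes. At an unadjusted p under 0.05 there were 8, beside 6577 of all 28353 probes. A higher mean in stressed mice was found for 24 of 29, beside 54.4% of all probes, with a median of 0.11 log2 against 0.01 for all probes. With slide as a fixed block 0 members had an unadjusted p under 0.05, and their median was 0.03 log2. Within slide 1, 14 of 29 members were higher in stressed mice, and within slide 3, 22 of 29. Bst2, the tetherin gene, had one of the smallest p-values, with 0.17 ± 0.06 log2 (limma adjusted p = 0.0783), and a range of -0.65 to -0.26 without and -0.52 to 0.10 with stress. The CUMS effect was 0.23 ± 0.08 log2 for Ifit3 (limma adjusted p = 0.0803) and 0.15 ± 0.06 for Irf9 (limma adjusted p = 0.147). Without CUMS mouse 2, 3 members were called. With spike-in scaling 1 was called and lower, beside 25.9% of all probes called. The median of all probes was then -0.12 log2, so the direction of the members depended on the scaling. The interaction altered 0 of 29 members (4 at an unadjusted p under 0.05), beside 4.47% of all probes.

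OVX+CUMS mice differed from control mice in 3 of 29 mPFC members, 2 higher and 1 lower, beside 33.4% of all probes (20.4% higher). Zbp1 ranged from -3.46 to -2.83 (median -3.13) in control and from -3.59 to -3.28 (median -3.57) in OVX+CUMS mice, a difference of -0.38 ± 0.10 log2 (limma adjusted p = 0.00582; exact permutation p = 0.00649, two-sided). Stat2 ranged from 0.92 to 1.28 (median 1.14) and from 1.19 to 1.46 (median 1.41), and was 0.25 ± 0.08 log2 higher (limma adjusted p = 0.0258; exact permutation p = 0.013). Ifit2 was 0.19 ± 0.07 log2 higher (limma adjusted p = 0.0411; exact permutation p = 0.00649). For each of the 3 genes, 5 of 6 OVX+CUMS mice were outside the control range and 1 was within it. The mean ± SD of Stat2 was 1.13 ± 0.15 in control, 1.37 ± 0.21 in CUMS, 1.37 ± 0.09 in OVX and 1.37 ± 0.10 in OVX+CUMS mice. For Zbp1 the mean ± SD was -3.14 ± 0.24, -3.50 ± 0.22, -3.56 ± 0.09 and -3.52 ± 0.12 in the same order. All control mice lay on slide 1, where CUMS minus control mice gave 3e-04 for Stat2 and -0.16 log2 for Zbp1, so group and slide cannot be told apart here. A fixed or a random block for slide left 0 members called, beside 0.0% and 4.92% of all probes. With spike-in scaling 17 were lower and 0 higher, beside 52.1% of all probes called, with the median of all probes at -0.24 log2. Stat2 and Ifit2 then had values of -0.05 and -0.11 log2.

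The effects in blood and mPFC were compared directly over 26 members, with the mouse as a random block. The OVX effect differed in 3, beside 39.3% of the 17529 probes detected in both tissues. Isg15 fell more in blood (-1.12) than in mPFC (-0.22), a difference of -0.90 ± 0.26 log2 (limma adjusted p = 0.00542). Gbp3 was 0.38 higher in blood and 0.20 log2 lower in mPFC (difference 0.57 ± 0.14, limma adjusted p = 0.00173). For Xaf1 the effects were -0.35 and 0.01 (difference -0.36 ± 0.13 log2, limma adjusted p = 0.0203). None of the 26 differed with slide as a block within each tissue, beside 0 of the 17529 probes.

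The CUMS effect differed in 8 of 26, each lower in blood than in mPFC, beside 51.4% of all probes (33.8% lower in blood). The signalling genes Stat2 (-0.42 in blood and 0.12 in mPFC, difference -0.54 ± 0.12 log2, limma adjusted p = 0.00052) and Irf9 (-0.36 and 0.15, difference -0.51 ± 0.12 log2) were among them. Ifit3, Samd9l, Ifi35, Parp14, Ddx58 and Gbp3 had differences of -0.56 to -0.36 log2. With slide as a block within each tissue 6 were called, 5 lower and 1 higher in blood, beside 37.9% of all probes. Gbp3, Ifi35 and Parp14 were no longer among the called members. The interaction differed between tissues in 0 members and in 0.0% of all probes. The sign of the effect was shared by the tissues in 17 of 26 members for OVX and in 13 of 26 for CUMS.

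Agreement of blood and mPFC was then followed mouse by mouse. Over 24 mice, as deviations from the group means, 0 of 26 members were correlated between the tissues in a permutation test within groups (lowest adjusted p = 0.492, adjusted over all 17529 probes), and 1 had an unadjusted p under 0.05, beside 9.87% of all probes. That was Samd9l, with r = 0.41 (rho = 0.39), and r = 0.26 without CUMS mouse 2 and 0.14 without CUMS mice 2 and 3. Of all probes 0.0228% passed. The median r was 0.08 for the members and 0.08 for all probes, and 17 of 26 members had a positive r, beside 60.7% of all probes. By Spearman's rho 0 members passed as well. Leaving out each mouse in turn gave 0 called each time, which with 24 mice and this adjustment does not show that the tissues are unrelated.

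The mean deviation of the 26 members had r = 0.02 and rho = 0.10 between the tissues. Without the 2 mice farthest from the blood median, OVX+CUMS mice 5 and 4, it was r = 0.30 and rho = 0.26. Within the groups r was 0.38 in control, 0.68 in CUMS, 0.56 in OVX and -0.45 in OVX+CUMS mice (n = 6 each), given as a description because the members share arrays. The pooled value thus changed with these 2 mice.

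**Figure D5:**
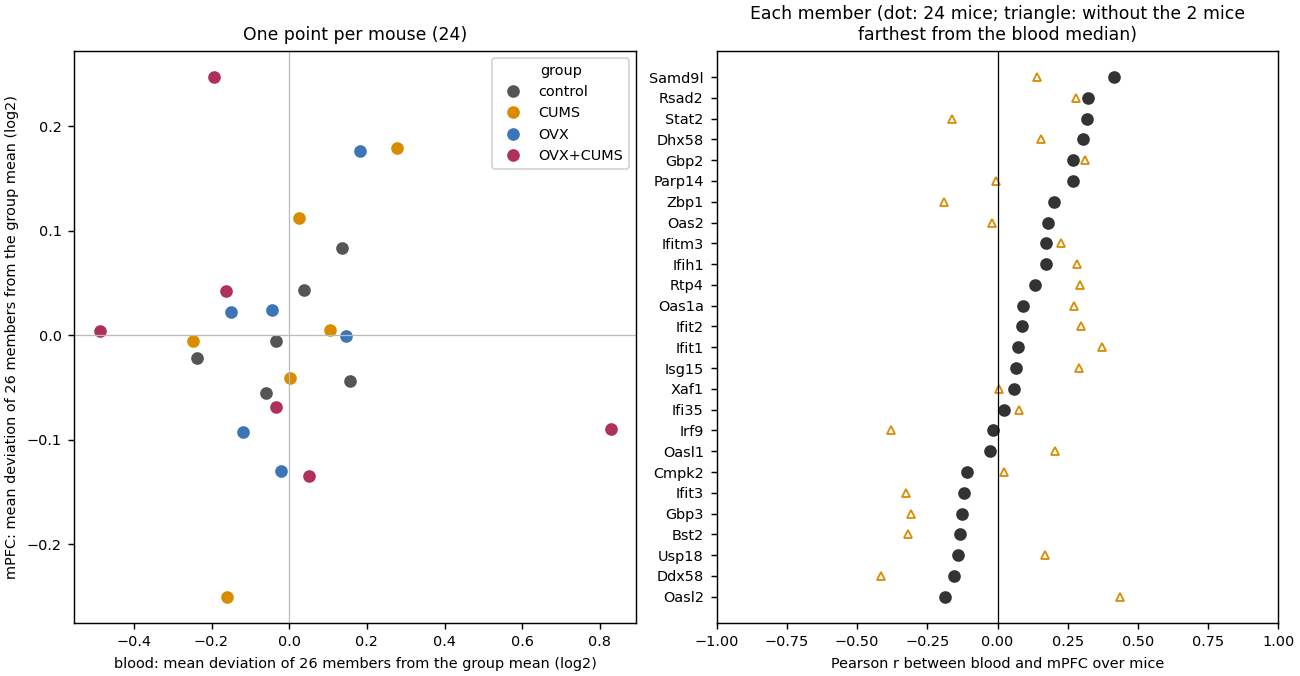
Left, mean deviation of 26 members from the group mean in blood (x axis) and mPFC (y axis), 1 point per mouse. Right, Pearson r between blood and mPFC over mice for each member (dots, 24 mice; triangles, without the 2 mice farthest from the blood median of that gene), where dots run from below 0 to 0.41 for Samd9l and 8 of 26 signs change without 2 mice.

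Within a tissue the members did vary together. In blood the median r over 325 pairs of the 26 members was 0.49 over 24 mice, and 0.36 without OVX+CUMS mouse 5, against 0.04 between members and other probes. In mPFC it was 0.32, against -0.01 with other probes. These are correlations across mice of genes on the same arrays, given as a description. Pairs ranged from -0.78 to 0.96 in blood, so the list was not a single block there.

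Genes of the interferon pathway outside the list were 54 of 56 on the array, with 48 detected in each tissue. OVX in blood altered 31 of 48, with 21 higher and 10 lower, near the 55.1% of all probes, and with slide as a fixed block none of the 20748 probes was called. Both detected ligand genes, Ifna1 (-0.50 ± 0.10) and Ifna2 (-0.39 ± 0.14 log2), were lower, although their probes may share signal with near-identical family members. Of 12 receptor and signalling genes 6 were higher, led by the kinase Tyk2 (0.59 ± 0.10) and the receptors Ifnar1 (0.45 ± 0.11) and Ifngr2 (0.44 ± 0.13 log2). Of 5 interferon regulatory factors 4 were higher, among them Irf8 (0.48 ± 0.09) and Irf2 (0.41 ± 0.08 log2). Of 10 sensors and adaptors 5 were higher and 3 lower, with Tlr7, a receptor for single-stranded RNA, at -0.99 ± 0.19 log2, the largest of them. Of 19 other interferon-induced genes 6 were higher and 4 lower.

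For CUMS in blood, 6 of 48 pathway genes were higher and 19 lower, near the 48.5% of all probes, and all 5 interferon regulatory factors were lower. The kinase Tbk1, which activates Irf3, was lower (-0.51 ± 0.09 log2), as was Ifi27l2a (-0.51 ± 0.13), and Tlr7 (0.45 ± 0.19) and the RNA-degrading Isg20 (0.51 ± 0.12 log2) were higher. The interaction altered 1, beside 1.42% of all probes, the GTPase Iigp1 (1.42 ± 0.31 log2, limma adjusted p = 0.0436). In mPFC, OVX altered 6 of 48 upwards and 7 downwards, beside 30.9% of all probes, with Iigp1 at -0.70 ± 0.14, Trim25, which activates RIG-I, at -0.25 ± 0.04, and Stat3 at 0.26 ± 0.05 log2. CUMS in mPFC altered 4, all higher, beside 4.2% of all probes, with the entry-restricting Ifitm1 the largest (0.50 ± 0.13 log2). OVX+CUMS mice differed from control mice in 17 mPFC pathway genes, 12 higher and 5 lower, beside 33.4% of all probes, where Iigp1 (-0.97 ± 0.20) and Ifitm1 (0.71 ± 0.19 log2) had the largest differences.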

How the data were processed

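RNA from blood and mPFC of 24 mice was hybridized to 48 one-colour Agilent mouse arrays. The deposited spot intensity is the background-subtracted signal of Feature Extraction software, run by the authors, with no scaling between arrays. The deposited table of log2 values, scaled by the authors to the 75th percentile of each array, was used as an alternative only, and 100% of single-spot values were within 0.001 log2 of those computed here after an offset per array.

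Control spots (3671 of 62976) and outlier spots were left out, log2 values of repeated spots were averaged and the 75th percentile over all probes was subtracted. Probes were kept in a tissue when they were well above background on all 24 arrays with a processed signal above 50 on at least 2, which left 20748 in blood, 28353 in mPFC and 17529 in both. For a gene with 2 probes the one with the higher mean signal was used. A two-way model was fitted in R 4.3.3 with limma 3.58.1 (all groups together, two-sided, Benjamini-Hochberg at 0.05). The number of arrays limits the precision.

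The regulators Irf7, Irf9 and Stat2, 8 effector genes, and the 5 largest called changes per tissue and effect were named with values; Ifi35, Samd9l, Ddx58, Ifit3, Xaf1 and the genes of single mice were named beside these after their values were seen. Members and lists were chosen with earlier results of these data known. Labels give 1 mouse per array. Same-numbered mice of different groups did not vary together (mean r = -0.04 in blood and 0.06 in mPFC), so the number was used as a block in an alternative only. Pathway genes were named by size of change. Tests were checked on simulated data. Not every pathway gene is reported here.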

Additional observations from a re-analysis of the deposited data

Results flagged for a closer look

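The 20 members named by rule were checked for single mice far from their group, and the other members were not. The mean of the members was checked in the same way, and no mouse was flagged for it. In 17 of 148 groups of 6 mice, a single mouse lay farther from the others than Dixon's limit allows, and chance gives about 1 in 20 groups. In blood, OVX+CUMS mouse 5 was the highest of its group for Gbp2 (2.70), Oas1a (4.27) and Ifih1 (0.76). OVX mouse 3 was the highest for Ifit1 (0.555) and Isg15 (7.62), and CUMS mouse 2, the dimmest blood array, the highest for Oasl2 (4.40), Oas3 (3.08) and Rsad2 (9.33) and the lowest for Gbp3 (-0.0602). Control mouse 5 was the lowest for Ifih1 in blood (-1.15). In mPFC, single high mice were OVX+CUMS mouse 6 for Ifit2 (-1.11), OVX+CUMS mouse 5 for Zbp1 (-3.28), control mouse 6 for Oas1a (-1.26), CUMS mouse 3 for Ifih1 (-1.15), OVX mouse 3 for Usp18 (-2.51) and control mouse 2 for Gbp3 (-0.79), and CUMS mouse 3 was low for Zbp1 (-3.90 log2 relative to the 75th percentile).

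The effect of the same treatment differed between blood and mPFC in limma for 11 tests. For OVX, blood minus mPFC was 0.57 for Gbp3, -0.90 for Isg15 and -0.36 log2 for Xaf1. For CUMS it was -0.54 for Stat2, -0.51 for Irf9, -0.56 for Ifit3, -0.44 for Samd9l, -0.41 for Ifi35, -0.37 for Parp14, -0.36 for Ddx58 and -0.36 log2 for Gbp3.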

How the results depend on the processing

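Counts are members called altered, with the share of all probes called in the same fit in parentheses where given. With slide as a fixed block there were 0 for OVX in blood, and 0 for OVX and 0 for OVX+CUMS minus control in mPFC (0.0% each). There were 0 (0.0%) for the blood minus mPFC difference of the OVX effect and 13 (49.7%) for CUMS in blood. For the tissue difference of the CUMS effect there were 6 (37.9%), where Gbp3 was also lost with differences per mouse and with the replicate number as a block. With slide as a fixed block the blood OVX effects of Ddx58 (-0.0899), Gbp3 (-0.0248), Oas3 (0.173), Rsad2 (0.0493) and Stat2 (-0.0905 log2) turned sign. So did the mPFC difference of Stat2 between OVX+CUMS and control mice (-0.13) and the tissue difference of Isg15 (0.27 log2). With slide as a random block the counts were 3 (22.4%) for OVX in blood, and 0 (3.95%) for OVX and 0 (4.92%) for OVX+CUMS minus control in mPFC. Within slide 1 and within slide 3, 0 members passed for CUMS in blood (0.0% each). With the erythroid level as a covariate, chosen after seeing the data, the blood counts were 0 (0.0%) for OVX and 1 (11.1%) for CUMS, Tap1. There was 1 (8.96%) for the interaction, Bst2 at -0.65 log2, and 2 (15.1%) for OVX+CUMS minus control, Ifit3 and Irf9. With this covariate Ddx58 (-0.11), Oas3 (0.0252), Rsad2 (0.14), Samd9l (-0.0242) and Stat2 (-0.10 log2) turned sign for OVX. Spike-in scaling gave 20 (34.9%) for OVX, 1 (25.9%) for CUMS and 17 (52.1%) for OVX+CUMS minus control in mPFC. It put Xaf1 at 0.0031 log2 for OVX in blood, and Ifit2 at -0.11 and Stat2 at -0.0546 log2 in mPFC for OVX+CUMS minus control. Normexp background correction gave 1 (5.18%) for the interaction and 1 (7.38%) for OVX+CUMS minus control in blood. It changed the blood splits to 8 higher and 7 lower for OVX (59.4%) and 0 higher and 9 lower for CUMS (48.9%). No detection filter gave 5 (16.8%) for CUMS in blood, and differences per mouse gave 5 (37.3%) for the tissue difference of OVX. The cause of these changes was not tested.

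Leaving out each mouse in turn gave counts of 12 to 16 (OVX), 6 to 14 (CUMS) and 0 to 4 for OVX+CUMS minus control in blood, the highest each time without OVX+CUMS mouse 5. In mPFC it gave 6 to 9 for OVX (9 without OVX mouse 3), 0 to 3 for CUMS and 0 to 2 for the interaction (both highest without CUMS mouse 2), and 1 to 5 for OVX+CUMS minus control (5 without OVX+CUMS mouse 3, and 1 without OVX+CUMS mouse 6, control mouse 1 or control mouse 6). The tissue difference ranged from 2 (without OVX mouse 5) to 7 (without OVX mouse 3) for OVX and from 7 to 13 (without OVX+CUMS mouse 5) for CUMS. With the replicate number as a block, 13 members were called with OVX and 6 with CUMS in blood, 8 for OVX and 3 for OVX+CUMS minus control in mPFC, and 4 and 7 for the tissue differences of OVX and CUMS. The dim blood arrays limit what could be detected.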
